A study of Mus musculus with 12 samples.

Results

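The AP-1 and immediate early genes described here are 10 genes chosen by symbol, of 48795 genes counted: Fos, Fosl2, Jun, Junb, Jund, Egr1, Egr2, Dusp1, Ier3 and Myc. Their RNA was measured by sequencing in 12 libraries of mouse bone marrow-derived macrophages (BMDMs), 2 libraries in each of 6 groups. WT cells (strain C57BL/6 in the labels, C57BL/6NJ in the study's methods) and cells of the germline knockout strain C57BL/6NJ-Acod1em1(IMPC)J/J received vehicle, particulate matter (PM, an urban dust reference material) at 20 μg/cm2 for 24 hours, or 4-octyl itaconate (OI, a form of itaconate that crosses the cell membrane) at 0.25 mM for 2 hours before the same PM. Both strains were male mice of 7 to 11 weeks, and the marrow was grown with M-CSF for 8 to 10 days. OI without PM was not a group of the design. All 10 genes passed the filter on low counts, which kept 11228 genes, and each library gave them between 198 and 6812 reads a gene.

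AP-1 is a dimer of a JUN protein (Jun, Junb, Jund) with another JUN, a FOS protein (Fos, Fosl2) or a related basic leucine zipper protein, and it binds DNA at many genes of growth, stress and inflammation. Immediate early genes such as Fos, Egr1, Egr2, Ier3 and Myc are transcribed within minutes of a signal without new protein synthesis, and MAP kinases switch many of them on. Dusp1 encodes a phosphatase that is made in the same response and turns MAP kinases off again, and Ier3 encodes a small stress and survival protein that macrophages raise when they are activated. The first wave of such a response is usually over within hours, so a single time point at 24 hours gives the level that remains, not the peak.

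The sequences just upstream of the start sites of Egr2, Ier3 and Dusp1 are shown because Ier3 changed most with PM and Egr2 most with OI, and because Dusp1, of the same response, changed little. They come from RefSeq on GRCm38.p6, run 5′ to 3′ on the strand of the gene, end at or before the start site and lie outside the annotated exons. Capitals mark matches to motifs searched on both strands. RefSeq gives several start sites for Egr2. The stretch before the most upstream one, chr10:67535325-67535474 on the plus strand, holds none of the motifs searched and is not printed. The middle stretch, chr10:67537416-67537565 on the plus strand, has a match to a CArG box, the letters bound by serum response factor, and so has the downstream stretch, chr10:67537719-67537868 on the plus strand, which also matches the antioxidant response element (ARE) core TGACNNNGC on the opposite strand:
Egr2, middle stretch: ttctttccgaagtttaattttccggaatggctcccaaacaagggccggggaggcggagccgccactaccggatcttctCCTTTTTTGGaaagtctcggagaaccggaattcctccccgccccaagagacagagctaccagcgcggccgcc
Egr2, downstream stretch: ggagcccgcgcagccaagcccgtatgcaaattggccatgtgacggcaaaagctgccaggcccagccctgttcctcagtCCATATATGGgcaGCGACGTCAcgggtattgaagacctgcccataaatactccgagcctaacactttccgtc
The Ier3 stretch, chr17:35821534-35821683 on the plus strand, has a match to a kappaB site, the letters bound by NF-kappaB proteins:
Ier3: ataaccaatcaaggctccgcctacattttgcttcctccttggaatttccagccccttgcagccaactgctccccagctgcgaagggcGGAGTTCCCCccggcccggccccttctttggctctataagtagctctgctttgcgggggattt
The Dusp1 stretch, chr17:26508520-26508669 on the minus strand, holds the cAMP response element TGACGTCA, then an ARE match on the opposite strand that overlaps the E-box CACGTG, the letters bound by MYC with MAX:
Dusp1: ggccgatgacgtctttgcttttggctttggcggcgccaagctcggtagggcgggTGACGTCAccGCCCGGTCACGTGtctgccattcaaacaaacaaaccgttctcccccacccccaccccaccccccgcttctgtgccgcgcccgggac

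The motifs were counted over whole windows of 250 bases before a start site, which are longer than the printed stretches of 150 bases. Of 32851 such mouse windows, 1.47% held a CArG box, 3.9% a kappaB site, 10.2% the ARE core, 1.55% the cAMP response element and 6.02% the E-box. The AP-1 site TGANTCA was in 6.75% of those windows and in 0 of the 12 windows that the table gives for 8 of the 10 genes. The EGR site GCGNGGGCG, in 4.7% of all windows, matched 1 of the 12, that of Fosl2, and the letters TATAAA, in 12.4%, matched 1, that of Fos. The kappaB letters, which allow several bases at some positions, matched 3 of the 12, those of Fos, Fosl2 and Ier3, and the E-box matched 2, those of Dusp1 and Egr2. The 4 windows with a CArG box are all Egr2 windows, and 3 of them overlap each other. A match describes letters in a window and not a bound site.

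The libraries held between 33616577 and 36817898 counts. The 8 macrophage markers searched were all tested, and their summed level ran from 14280 to 14600 CPM (counts scaled to library size) with vehicle, from 23190 to 27340 with PM and from 14430 to 16640 with OI and PM, most of it Lyz2. Markers of T cells, B cells, mast cells and erythroid cells reached at most 3 reads in a library. Of 4 dendritic cell markers Zbtb46 reached 20 reads and the others at most 3. The summed level of 3 fibroblast markers, at most 50 reads a gene and led by Col1a1, reached 1.53 CPM with vehicle, 1.32 with PM and 0.722 with OI and PM, and was lowest in a WT library with OI and PM at 0.169. The summed level of 7 neutrophil markers was at most 6.59 CPM with vehicle, between 12.4 and 19.05 with PM and between 29.5 and 61 with OI and PM. S100a8, at 3.53 to 60.5 CPM over the 12 libraries, made up most of it, S100a9 reached 3.31 CPM and Ngp 2.56, while Ly6g, Elane, Mpo and Camp had at most 8 reads in any library. In bulk RNA, fewer cells of a type and less RNA per cell cannot be told apart. The paired libraries of the WT groups with PM and with OI and PM stood further apart than the others: the chi-square per gene between replicates was 27.3 and 58.5 there, against 2.61 to 8.32 in the other 4 groups. The difference within these 2 pairs rose with gene length (Spearman's rho 0.595 and 0.607 across genes, which are not independent replicates). In the other 4 groups rho ran from -0.355 to 0.288.

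Acod1, the gene targeted in the knockout strain and the enzyme that makes itaconate, was read in every group. Its level was 1.84 and 2.49 CPM in WT with vehicle, 181.3 and 170.3 with PM and 32.6 and 57.1 with OI and PM. In the libraries labelled Acod1-/- it was 1.26 and 1.22 CPM with vehicle, 107.6 and 94.1 with PM and 24.4 and 26.8 with OI and PM. With PM the labelled knockout was lower by 0.80 on the log2 scale (SE 0.20, adjusted p = 0.0807), which did not pass the test. Counts summed over a whole gene say nothing of single exons, so they do not check the label, and the groups are called by their labels below. In its own metabolite measurement, the study detected itaconate after PM in WT BMDMs but not in Acod1-/- BMDMs. The labels do not say that the 2 libraries of a group came from separate mice or cultures, so p-values measure only the spread between these libraries.

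At 24 hours with vehicle, the genes differed widely in level. Per kilobase of exon, WT cells with vehicle had 52.1 CPM of Jun, 42.1 of Jund, 34.3 of Fos and 33.3 of Junb. Egr2 stood at 16.7, Dusp1 at 17.9 and Myc at 14.2 CPM per kilobase. The lowest were Ier3 at 8.67, Fosl2 at 6.85 and Egr1 at 3.35. Across the 12 libraries Jun moved least, with its highest library 1.2 times its lowest, followed by Fos at 1.33 and Dusp1 at 1.51. The other 7 genes ranged from 2.03 times for Junb to 5.02 times for Ier3.

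**Figure D1:**
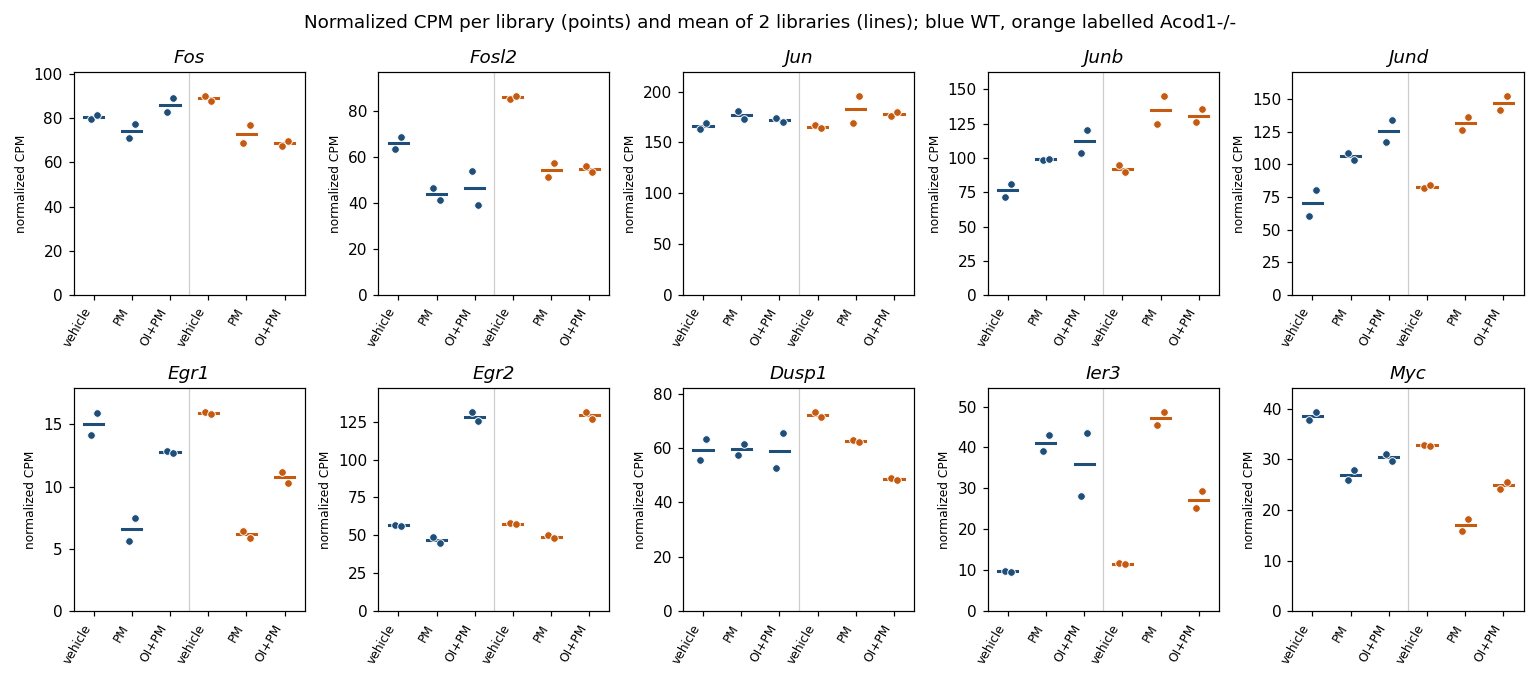
Normalized CPM of each of the 10 genes (vertical axes from 0, a scale for each gene) in vehicle, PM and OI+PM libraries of WT (blue) and labelled Acod1-/- (orange) cells; points are libraries and lines the mean of 2. Ier3 sits between 9.70 and 11.7 in the 4 vehicle libraries and between 25.3 and 48.7 in the 8 others, and Egr2 between 125.4 and 131.3 in the 4 OI+PM libraries and between 45.2 and 58.1 elsewhere.

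PM against vehicle asked what particles leave behind after 24 hours. In WT cells Ier3 rose 4.20-fold, Jund 1.51-fold and Junb 1.29-fold, while Egr1 fell to 6.59 from 15.0 CPM, Fosl2 to 44.0 from 66.3, Myc to 26.9 from 38.5 and Egr2 to 47.2 from 56.8. In the labelled Acod1-/- cells the same 7 genes passed the test in the same directions and Fos joined them, falling 1.22-fold. A gene is called here when its adjusted p in edgeR's quasi-likelihood test was at most 0.05. In WT 7 of the 10 genes were called, 3 higher and 4 lower, where 24.8% of all genes tested were called, 12.6% higher and 12.2% lower. The labelled Acod1-/- comparison called 8, 3 higher and 5 lower, against 23.9% of all genes, 12% higher and 11.9% lower. Without the second WT library with PM 4 were called in WT, and without the first labelled Acod1-/- library with PM 5 in labelled Acod1-/- cells, while the share of all genes called fell to 12.4% in each. The median log2 fold change (written log2 change below) of the 10 was -0.06 in WT and -0.22 in labelled Acod1-/- cells, beside 0.01 and 0.00 over all genes tested. Only Ier3 and Egr1 among the 10 also changed at least 2-fold, which 4.15% of all genes did in WT and 4.5% in labelled Acod1-/- cells. Myc in labelled Acod1-/- cells, at -0.94, passed that size too when scaled to the total count (-1.02), when corrected for gene length (-1.04) or when the second of its PM libraries was left out.

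Ier3 (chr17:35821684-35822923, plus strand) was the gene that moved furthest with PM. It had 9.91 and 9.70 CPM in WT with vehicle and 39.3 and 43.2 with PM. The labelled knockout had 11.7 and 11.6 with vehicle and 45.5 and 48.7 with PM. Every PM library stood above every vehicle library. The log2 change was 2.07 (SE 0.17, adjusted p = 2.56e-05) in WT and 2.02 (SE 0.17, adjusted p = 2.16e-05) in labelled Acod1-/- cells.

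Egr1 (chr18:34859823-34864984, plus strand), a zinc finger factor that activates growth and inflammatory genes, moved the opposite way. Its WT libraries had 14.1 and 15.9 CPM with vehicle and 5.66 and 7.52 with PM. The labelled Acod1-/- libraries had 16.0 and 15.8 with vehicle and 6.47 and 5.90 with PM. No PM library reached the lowest vehicle library, and the log2 changes were -1.19 (SE 0.13, adjusted p = 1.21e-04) and -1.36 (SE 0.13, adjusted p = 4.17e-05). Egr2 (chr10:67535475-67542188, plus strand), its close relative, differed far less: 57.1 and 56.4 CPM against 49.2 and 45.2 in WT, with a log2 change of -0.27 (SE 0.06, adjusted p = 0.0153). The call for this small fall was lost under 4 of 21 alternative fits in WT and 7 of 21 in labelled Acod1-/- cells. Over all 21 the log2 change stayed between -0.36 and -0.21 in WT and between -0.31 and -0.21 in labelled Acod1-/- cells.

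Among the JUN genes, Junb and Jund rose and Jun did not pass the test. Jund (chr8:70698949-70700616, plus strand), the JUN protein that many resting cells already hold, had 60.3 and 80.1 CPM with vehicle and 108.9 and 103.5 with PM in WT. Its WT log2 change was 0.60 (SE 0.12, adjusted p = 0.0066), and in labelled Acod1-/- cells it was 0.67 (SE 0.12, adjusted p = 0.00315). The WT value was 0.38 with the gene length correction (adjusted p = 0.0377). It was 0.41 without the first WT vehicle library and 0.82 without the second. Junb (chr8:84974484-84978718, minus strand), a JUN protein with weaker activating power than Jun at many sites, had 71.8 and 81.3 CPM with vehicle and 98.6 and 99.4 with PM in WT. The groups did not overlap, with a log2 change of 0.37 (SE 0.10, adjusted p = 0.0245). The WT call for Junb was lost under 5 of the 21 alternatives, as when the libraries were scaled to their total count (0.28, adjusted p = 0.0549) or corrected for gene length (0.21, adjusted p = 0.105), and in labelled Acod1-/- cells its log2 change of 0.55 (SE 0.10, adjusted p = 0.00306) was called under all 21 alternatives. Jun (chr4:95049034-95052222, minus strand) had 163.3 and 169.0 CPM against 181.2 and 173.1 in WT, a log2 change of 0.09 (SE 0.07, adjusted p = 0.349).

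The 2 FOS genes are described together. Fosl2 (chr5:32135801-32157842, plus strand), a FOS protein that lasts longer in the cell than Fos, had 63.8 and 68.8 CPM with vehicle and 46.8 and 41.2 with PM in WT. The log2 change was -0.59 (SE 0.13, adjusted p = 0.0107) in WT and -0.66 (SE 0.13, adjusted p = 0.00536) in labelled Acod1-/- cells. The WT call was lost without the second vehicle library (adjusted p = 0.0768) or the second PM library (0.085), and the other without the first PM library (0.0624). Fos (chr12:85473890-85477273, plus strand), the partner of Jun in the classic AP-1 dimer, had 79.6 and 81.7 CPM with vehicle and 71.2 and 77.2 with PM in WT, and its log2 change of -0.12 (SE 0.07, adjusted p = 0.245) did not pass. With the gene length correction Fos fell by 0.28 in WT too (adjusted p = 0.0123). Fos in labelled Acod1-/- cells went from 90.2 and 88.0 to 69.0 and 76.8 CPM, a fall of 0.29 on the log2 scale (SE 0.07, adjusted p = 0.0195), a call lost without either vehicle library (adjusted p = 0.122 and 0.0853) or the first PM library (0.166). The Fos effect of PM was not shown to differ between the genotypes (difference -0.17, SE 0.11, unadjusted p = 0.142).

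Myc (chr15:61985391-61990374, plus strand), the factor that drives ribosome and nucleotide synthesis with MAX, fell in both genotypes. It had 37.7 and 39.3 CPM with vehicle and 25.9 and 27.8 with PM in WT, and 32.9 and 32.6 against 15.9 and 18.2 in labelled Acod1-/- cells. The groups stood clear of each other in both, with log2 changes of -0.52 (SE 0.08, adjusted p = 0.00133) and -0.94 (SE 0.08, adjusted p = 2.65e-05), called under all 21 alternatives. Dusp1 (chr17:26505590-26562128, minus strand) had 55.6 and 63.2 CPM with vehicle and 57.5 and 61.4 with PM in WT, ranges that overlap, with a log2 change of 0.00 (SE 0.10, adjusted p = 0.993). Dusp1 in labelled Acod1-/- cells went from 73.2 and 71.3 to 62.9 and 62.4 CPM without passing (-0.21, SE 0.10, adjusted p = 0.169), and 6 of the 21 alternatives called it.

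**Figure D2:**
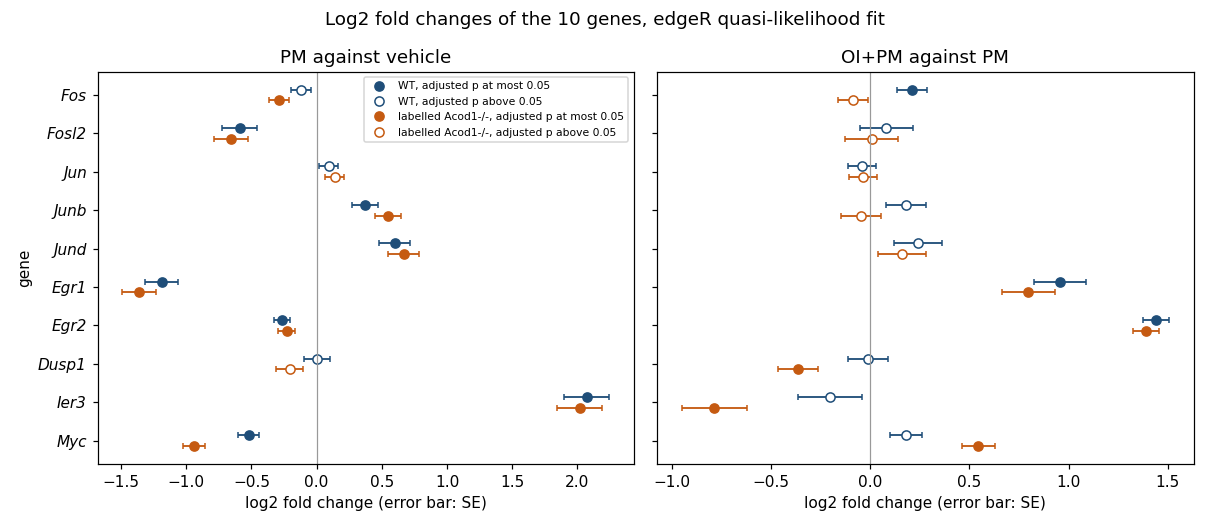
Log2 fold changes (horizontal axes, error bars are the SE) of the 10 genes for PM against vehicle (left) and OI+PM against PM (right), in WT (blue) and labelled Acod1-/- cells (orange); filled points had an adjusted p of at most 0.05. Ier3 stands furthest right with PM at 2.07 and 2.02, and Egr2 with OI at 1.44 and 1.39.

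OI with PM against PM alone asked what pretreatment with the itaconate derivative changed. Egr2 rose 2.72-fold in WT and 2.62-fold in labelled Acod1-/- cells, and Egr1 rose 1.94-fold and 1.74-fold, so both EGR genes were higher in both genotypes. The other calls were each made in a single genotype, and no gene passed the test of a difference between genotypes given below. Fos rose 1.16-fold in WT, while in labelled Acod1-/- cells Myc rose 1.46-fold, Ier3 fell 1.73-fold and Dusp1 fell 1.29-fold. In WT 3 of the 10 genes were called, 3 higher and 0 lower at an adjusted p of at most 0.05 (and 0 lower at an unadjusted p of that size or by DESeq2), where 43.9% of all genes were called, 21.3% higher and 22.6% lower. Among labelled Acod1-/- libraries 5 were called, 3 higher and 2 lower, against 34.6% of all genes, 13.9% higher and 20.6% lower. Without the first WT library with OI and PM 5 were called in WT, where 60.3% of all genes were, and without the second 4, where 40.6% were. The median log2 changes were 0.18 in WT and -0.01 in labelled Acod1-/- cells, beside 0.02 and 0.00 over all genes. Egr2 was the 1 gene of the 10 that changed at least 2-fold, which 10.8% of all genes did in WT and 9.83% in labelled Acod1-/- cells. Scaling to the total count moved the median of all genes to -0.11 in the WT comparison. The main fit pools the spread between libraries over the 6 groups. A fit of only the groups compared called 17.3% of all genes in WT and 51.6% in labelled Acod1-/- cells.

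Egr2, a zinc finger factor of the EGR family with known roles in myeloid and lymphoid cells, had 131.1 and 125.4 CPM in WT with OI and PM, where WT with PM alone had 49.2 and 45.2. In labelled Acod1-/- cells it had 131.3 and 126.8 with OI and PM against 50.1 and 48.5 with PM. The 4 OI libraries lay above all 8 others. The log2 changes were 1.44 (SE 0.07, adjusted p = 7.42e-08) and 1.39 (SE 0.06, adjusted p = 9.70e-08). Under the 21 alternatives they were at least 1.31 in WT and 1.32 in labelled Acod1-/- cells, and the highest adjusted p in WT was 0.0015. The genotype labels gave nearly the same Egr2 level with OI and PM, with a log2 difference of 0.01 (SE 0.06).

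Egr1 with OI and PM had 12.8 and 12.7 CPM in WT and 11.2 and 10.3 in labelled Acod1-/- cells, above all 4 PM libraries. The log2 changes were 0.96 (SE 0.13, adjusted p = 2.18e-04) and 0.80 (SE 0.13, adjusted p = 9.23e-04). The WT value was 0.76 without the first WT library with PM and 1.18, past 2-fold, without the second. Against vehicle, Egr1 with OI and PM was still lower in labelled Acod1-/- cells, by 0.57 on the log2 scale (SE 0.12, adjusted p = 0.00369), and in WT the value of -0.23 (SE 0.12, adjusted p = 0.115) did not pass. The WT value was -0.45 and passed with scaling to the total count (adjusted p = 0.00826), and it also passed in the fits without either WT library with PM. Egr2 with OI and PM stood at 2.26 times vehicle in WT and 2.23 times in labelled Acod1-/- cells.

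Ier3 spread widely between the WT libraries with OI and PM, at 28.3 and 43.4 CPM, on either side of the PM libraries at 39.3 and 43.2. Its WT log2 change was -0.20 (SE 0.16, adjusted p = 0.335), and it was 0.08 without the first OI and PM library and -0.54 (adjusted p = 0.0012) without the second. With the gene length correction it was -0.40 (adjusted p = 0.0025). In labelled Acod1-/- cells, where the pair stood closer, Ier3 had 25.3 and 29.3 CPM with OI and PM against 45.5 and 48.7 with PM, and its fall of 0.79 (SE 0.16, adjusted p = 0.00387) was called under all 21 alternatives.

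Dusp1 in WT had 52.6 and 65.5 CPM with OI and PM, on either side of 57.5 and 61.4 with PM. In labelled Acod1-/- cells it had 49.0 and 48.4 CPM with OI and PM, the 2 lowest of all 12 libraries, a fall of 0.36 (SE 0.10, adjusted p = 0.0197). The call was lost when any of the 4 compared libraries was left out, while the log2 change stayed between -0.37 and -0.35. Myc had 31.1 and 29.7 CPM in WT with OI and PM, a log2 change of 0.18 (SE 0.08, adjusted p = 0.101). Its labelled Acod1-/- libraries had 24.2 and 25.5 CPM, and the rise of 0.54 (SE 0.08, adjusted p = 5.76e-04) was called under all 21 alternatives.

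Fos had 82.8 and 89.0 CPM in WT with OI and PM against 71.2 and 77.2 with PM, groups that did not overlap. The call for this rise of 0.21 (SE 0.07, adjusted p = 0.0437) was lost under 13 of the 21 alternatives. The fits without the second OI and PM library (0.16) and without the first PM library (0.15) were among them. Over all 21 the log2 change lay between 0.08 and 0.27. In labelled Acod1-/- cells Fos had 67.6 and 69.8 CPM with OI and PM, with a log2 change of -0.09 (SE 0.08, adjusted p = 0.428). Fosl2, Jun, Junb and Jund did not pass in either genotype, with log2 changes between -0.05 and 0.24. Without the first WT library with OI and PM, Junb (0.28, adjusted p = 0.033) and Jund (0.34, adjusted p = 0.042) passed in WT, and without the second Fosl2 did (0.29, adjusted p = 0.0318).

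**Figure D3:**
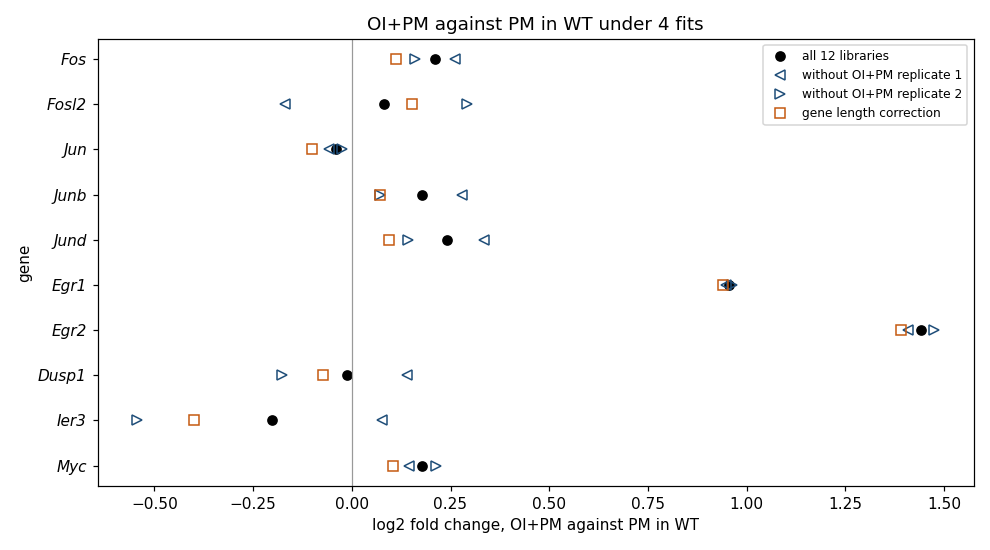
Log2 fold change of OI+PM against PM in WT (horizontal axis) for the 10 genes with all 12 libraries (black), without either WT library with OI and PM (blue triangles) and with a gene length correction (orange squares). Egr2 stays between 1.39 and 1.47 and Egr1 between 0.94 and 0.96, while Ier3 runs from -0.54 to 0.08 and Fosl2 from -0.17 to 0.29.

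OI with PM against vehicle gave both treatments together. In WT 6 of the 10 genes were called where 65.5% of all genes were: Ier3, Egr2, Junb and Jund were higher and Myc and Fosl2 lower. The labelled Acod1-/- comparison called 9, all but Jun, where 49.4% of all genes were. Jund had 117.1 and 134.0 CPM in WT and 141.8 and 152.5 in labelled Acod1-/- cells with OI and PM, the highest group mean within each genotype, although OI with PM against PM passed for it in neither. Its log2 changes against vehicle were 0.84 (SE 0.12, adjusted p = 2.42e-04) and 0.83 (SE 0.12, adjusted p = 3.19e-04). Ier3 stayed 3.65-fold and 2.35-fold above vehicle. Scaling to the total count moved the median of all genes to -0.20 in WT and -0.15 in labelled Acod1-/- cells in these comparisons, and the 15 calls kept their direction under it. In WT that scaling also called Egr1 and Dusp1 (-0.24, adjusted p = 0.0373). The gene length correction brought the WT log2 changes of Jund to 0.48, of Junb to 0.28 from 0.55 and of Fosl2 to -0.25 from -0.51, and the Fosl2 call was lost in the fit of the compared groups alone (adjusted p = 0.0673).

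The genotype comparison asked whether the labelled knockout shifted these genes. With vehicle edgeR called 0 of the 10, where 1.83% of all genes were called. At an unadjusted p of at most 0.05 it found 4, where 10.2% of all genes were found, of which Fosl2 (0.38, SE 0.13), Junb (0.27, SE 0.10) and Dusp1 (0.28, SE 0.10) were higher in labelled Acod1-/- cells and Myc (-0.23, SE 0.08) lower, and DESeq2 also called 0. The fit of the vehicle groups alone called 7 of the 10 and 20.6% of all genes. Leaving out either WT library with OI and PM, which also sets the spread, gave 2 of the 10 with vehicle, beside 3.5% or 3.51% of all genes, and 3 with PM, beside 6.22% or 6.2%. With PM it called 1 gene, where 2.4% of all genes were called. This was Myc, at 15.9 and 18.2 CPM in labelled Acod1-/- cells against 25.9 and 27.8 in WT, lower by 0.66 on the log2 scale (SE 0.08, adjusted p = 0.00334). Junb lay just outside, at 124.7 and 145.4 CPM against 98.6 and 99.4, with a log2 difference of 0.45 (SE 0.10, adjusted p = 0.0508), and 9 of the 21 alternatives called it. With OI and PM it called Fos alone, where 6.96% of all genes were called. Fos was lower in labelled Acod1-/- cells by 0.32 on the log2 scale (SE 0.08, adjusted p = 0.034), a call lost under 12 of the 21 alternatives. Without the first WT library with OI and PM 5 of the 10 were called, beside 48.6% of all genes, and without the second 0, beside 3.6%.

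The difference between genotypes in each treatment effect was tested as an interaction, and edgeR called 0% of genes for PM and 0% for OI. At an unadjusted p of at most 0.05 it found 1 of the 10 genes for the PM effect, beside 2.43% of all genes, and 4 for the OI effect, beside 6.39%, and DESeq2 called 0 of the 10 in either. Myc had the lowest p for PM, with an effect in labelled Acod1-/- cells lower by 0.42 on the log2 scale (SE 0.12, unadjusted p = 0.00457, adjusted p = 1). For OI its effect was higher by 0.36 (SE 0.12, unadjusted p = 0.011, adjusted p = 0.702), and those of Fos, Dusp1 and Ier3 were lower by 0.30, 0.35 and 0.58 (unadjusted p = 0.0192, 0.0354 and 0.0297). No difference passed, so the genotype-specific calls above are not shown to differ between WT and labelled Acod1-/- cells. Without the first WT library with OI and PM, the Ier3 and Dusp1 differences passed (-0.86 and -0.50), and the number of genes called went from 0 to 525. Without the second they were -0.24 and -0.19 and did not pass.

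The counts of the lists of related genes that follow stand beside the shares of all genes called. With PM these were 12.6% higher and 12.2% lower in WT and 12% and 11.9% in labelled Acod1-/- cells. With OI they were 21.3% and 22.6% in WT and 13.9% and 20.6% in labelled Acod1-/- cells. Genes were named by the size of their change within each genotype. Where a gene is named for a single genotype, its value in the other is not given, and a difference between genotypes is not shown. No gene passed the interaction test for PM or OI in the main fit.

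The other AP-1 genes put these values in their family. Of 13 tested, 4 rose and 2 fell with PM in each genotype, and 5 rose with OI while 3 fell in WT and 4 in labelled Acod1-/- cells. Batf, a partner of JUN proteins in immune cells, rose with PM from 1.89 to 4.07 CPM in WT (log2 change 1.11, SE 0.17), and Maff, a small MAF protein, from 3.34 to 6.36 (0.93, SE 0.20). Batf2 rose with PM too (0.72, SE 0.16). With OI, Fosl1, a FOS gene that was low with vehicle, rose from 2.87 to 10.6 CPM in WT (1.87, SE 0.19) and from 2.24 to 7.28 in labelled Acod1-/- cells (1.70, SE 0.20). Maf, a large MAF factor of differentiated macrophages, fell with OI from 221.1 to 50.1 CPM in WT (-2.14, SE 0.10) and from 260.6 to 79.1 in labelled Acod1-/- cells (-1.72, SE 0.10). The adjusted p of these WT values was at most 0.00956. The medians over the 13 were 0.01 and 0.05 with PM and 0.14 and 0.14 with OI.

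Of 24 other immediate early genes tested, 6 rose and 3 fell with PM in WT, and 5 rose and 6 fell in labelled Acod1-/- cells. Sgk1, a kinase of the serum response, rose from 49.6 to 97.0 CPM in WT (0.97, SE 0.06). Nr4a1, a nuclear receptor induced by many signals, fell from 2.52 to 1.31 (-0.94, SE 0.21), and Zfp36l1, which destabilizes AU-rich mRNAs, fell from 35.0 to 16.4 (-1.09, SE 0.10). With OI 10 rose and 4 fell in WT, and 4 rose and 5 fell in labelled Acod1-/- cells. Zfp36l1 fell further, to 2.09 CPM in WT (-2.96, SE 0.13) and 3.48 in labelled Acod1-/- cells (-3.05, SE 0.12). Plk3, a stress kinase, rose with OI in both (1.56 and 1.36), while Klf2, a factor that quiets macrophages, fell in WT (-1.43, SE 0.15). The survival gene Mcl1 fell with OI in WT (-1.045, SE 0.05) and in labelled Acod1-/- cells (-0.97, SE 0.05).

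Dusp1 belongs to a family of feedback genes of MAP kinases. Of 12 others tested, 0 rose and 5 fell with PM in WT, and 0 rose and 6 fell in labelled Acod1-/- cells, with medians of -0.25 and -0.33, where 12.6% and 12% of all genes rose and 12.2% and 11.9% fell. Dusp5 and Dusp6, phosphatases of ERK kinases, fell from 17.7 to 12.4 and from 111.2 to 80.7 CPM in WT, and Spred1, an inhibitor of RAS signalling, from 250.7 to 176.9. Spry2, a further RAS pathway inhibitor, fell by 0.54 in labelled Acod1-/- cells. With OI 4 rose and 5 fell in WT, and 3 rose and 4 fell in labelled Acod1-/- cells. Dusp6 rose to 137.5 CPM in WT (0.77, SE 0.07) and to 134.7 from 65.9 in labelled Acod1-/- cells (1.03, SE 0.07), Dusp5 rose in WT (1.24, SE 0.16) and Dusp4 in labelled Acod1-/- cells (0.94, SE 0.14). Dusp8 fell in both (-0.95 and -0.90). For the 0 risen with PM, edgeR gave 1 in WT and 0 in labelled Acod1-/- cells at an unadjusted p of at most 0.05, and DESeq2 called 0 in each.

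Of 24 MAP kinases and the factors they act on, 2 rose and 6 fell with PM in WT and 3 rose and 4 fell in labelled Acod1-/- cells. Mapkapk2, which stabilizes inflammatory mRNAs, rose with PM from 170.9 to 264.2 CPM in WT, and with OI it fell from 269.1 to 174.0 in labelled Acod1-/- cells. Map2k6, a kinase above the stress MAP kinases, fell with PM from 5.77 to 3.98 CPM and with OI to 0.46 in WT. With OI 7 rose and 4 fell in WT and 3 rose and 4 fell in labelled Acod1-/- cells, and Map2k2 was among the risen in WT (0.47, SE 0.15).

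Nab1 and Nab2 encode the proteins that bind EGR factors and repress them, and Nab2 is itself a target of EGR1. Nab2 followed the direction of Egr1: it fell from 65.6 to 40.7 CPM with PM in WT (-0.69, SE 0.08) and from 74.8 to 46.9 in labelled Acod1-/- cells (-0.67, SE 0.07), and rose to 48.9 (0.26, SE 0.08) and 60.8 (0.37, SE 0.07) with OI. Nab1 moved the other way with OI, down from 84.5 to 56.7 CPM in WT (-0.57, SE 0.07) and from 83.1 to 65.0 in labelled Acod1-/- cells (-0.35, SE 0.07). With PM it rose in labelled Acod1-/- cells (0.21, SE 0.07, adjusted p = 0.0472). A link between Egr1 and Nab2 in these cells was not tested.

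Around Myc, 9 genes of the MAX network were tested, of which 1 rose and 1 fell with PM in each genotype. Mxd1, a MAX partner that opposes MYC, rose (0.39 and 0.42) and Mxd4, of the same family, fell (-0.53 and -0.27). With OI 2 rose and 4 fell in WT, and 1 rose and 4 fell in labelled Acod1-/- cells. Mxi1 rose (0.47 in each), Mxd1 fell (-0.46 and -0.57), and Mxd3 went from 83 to 96 reads in the PM libraries to 1, 0, 0 and 2 reads in the OI and PM libraries. Of 15 genes that MYC is known to act on, 1 rose and 1 fell with PM in WT and 0 rose and 2 fell in labelled Acod1-/- cells, at a median of 0.01 and -0.11. At an unadjusted p of at most 0.05 edgeR also gave 0 higher in labelled Acod1-/- cells, as did DESeq2 after adjustment. Ccnd2, a cyclin of the G1 phase, fell with PM from 26.8 to 11.9 CPM in WT (-1.18, SE 0.11) and from 23.1 to 7.54 in labelled Acod1-/- cells (-1.62, SE 0.11), and fell again with OI (-1.63 and -1.75). Fbl, of the nucleolus, rose with PM in WT (0.39, SE 0.11) and Ppat, of purine synthesis, fell in labelled Acod1-/- cells (-0.35, SE 0.08). With OI 2 rose and 2 fell in WT and 2 rose and 1 fell in labelled Acod1-/- cells. Odc1, the first enzyme of polyamine synthesis, rose from 21.5 to 68.4 CPM in WT (1.67, SE 0.11) and from 20.0 to 61.1 in labelled Acod1-/- cells (1.61, SE 0.11), and Rcl1, of ribosome assembly, rose in both (0.46 and 0.32).

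**Figure D4:**
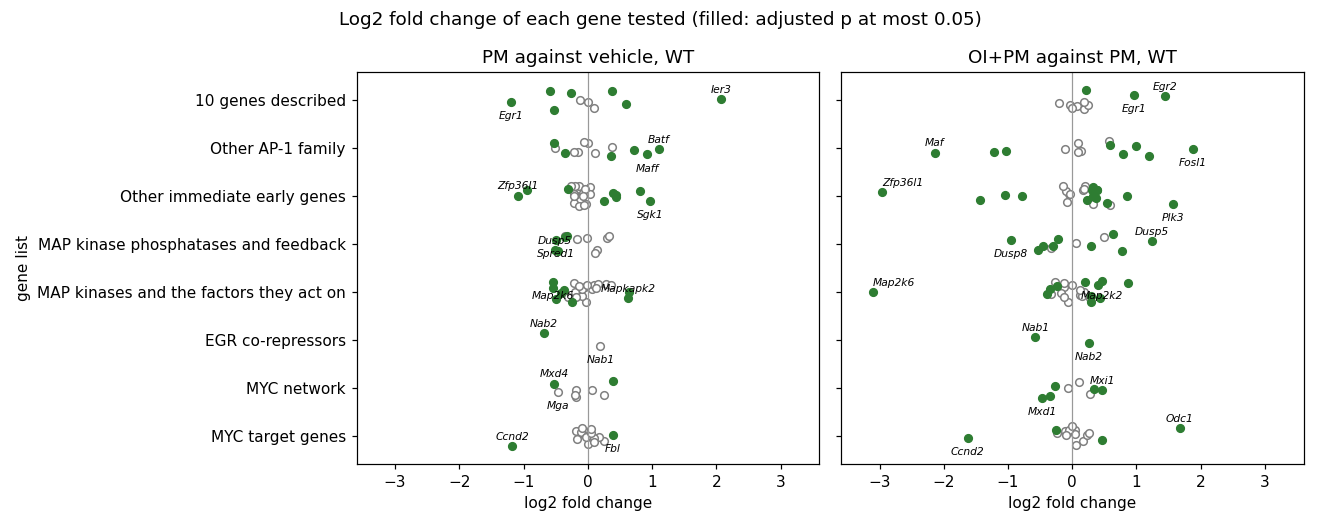
Log2 fold change (horizontal axes) of every tested gene of 7 lists and of the 10 genes described, for PM against vehicle (left) and OI+PM against PM (right) in WT; filled points had an adjusted p of at most 0.05, points are spread vertically for view, names are given for some genes with large changes, and Mxd3, at 0 to 2 reads with OI, is left out. In the left panel every filled point of the MAP kinase feedback list lies below 0, and in the right panel Maf at -2.14 and Fosl1 at 1.87 lie furthest apart in the AP-1 family.

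The order of the 6 group means differed from gene to gene. For Myc it ran upward from labelled Acod1-/- with PM to labelled Acod1-/- with OI and PM, then WT with PM. WT with OI and PM, labelled Acod1-/- with vehicle and WT with vehicle followed. For Egr2 the libraries of the 2 PM groups overlapped, and so did those of the 2 OI and PM groups. For Jun most neighbouring groups overlapped. The groups were sorted by their own means and overlap was not counted over all genes, so it is not read as a trait of these genes. Junb and Jund moved most alike among the 10, with a Pearson's r of 0.95 over the 12 libraries on log CPM, and Ier3 moved most opposite to Egr1 and to Fosl2, with r of -0.82 each, followed by Junb with Myc at -0.81. These values describe 12 libraries that share the same treatments.

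Over 9572 genes of at least 5 CPM on average, those most like each of the 10 across the 12 libraries were named by Pearson's r. The nearest to Egr2 was Slc16a6, a transporter gene (r = 0.996), at 31.7 CPM in WT with PM and 142.5 with OI and PM, followed by Tcp11l2 (0.994) and Zbed3 (0.989). Ier3 had the iron transporter Slc11a2 (0.991), Gch1, of tetrahydrobiopterin synthesis (0.989), and the necroptosis effector Mlkl (0.987). Fosl2 had Cux1 (0.981), Ttc17 (0.980) and Rai1 (0.980), and Junb had Unc93b1 (0.968), Cebpd (0.952) and Jund (0.949). For Egr1 they were Ank (0.959), Arhgap25 (0.956) and Tec (0.954), for Jund Csf2ra (0.955), Tma16 (0.954) and Laptm4a (0.953), and for Myc Mtap (0.947), Emp1 (0.941) and Noct (0.939). The likeness was lowest for the genes that moved least: Dusp1 with Rbm10 (0.942), P4ha1 (0.920) and Hdac5 (0.917), Fos with Gsn (0.899), Hadhb (0.884) and Tes (0.869), and Jun with Ficd (0.866), Kif1c (0.862) and Pcbp1 (0.820).

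Exons of 4 of the 10 genes overlap those of a gene on the opposite strand, and the handling of strand is not given in the sources used here, so reads there could not be told apart. Jund shares 877 of its 1668 exonic bases with Gm11175, which was given 12 to 30 reads a library, and Jun shares 232 with Junos, at 105 to 215 reads. Junb shares 173 bases with Prdx2, an abundant gene at 145.0 to 258.6 CPM whose log2 change with PM was 0.48 in WT and 0.40 in labelled Acod1-/- cells, beside the 0.37 and 0.55 of Junb. Dusp1 shares 11 bases with Ergic1. Their part in the values was not tested.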

How the data were processed

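The authors sequenced 50 bp single-end reads and mapped them to GRCm38. Their processing notes list FastQC 0.11.5, STAR 2.5.3a, Picard 2.9.0, featureCounts and DESeq2. The authors deposited, 1 file a library, whole read counts for each gene that had not been normalized. The annotation release and the handling of strand are not given in the sources used here.

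Of 48795 identifiers, 48349 were matched to a symbol. Positions and exonic lengths came from GENCODE M21 on GRCm38. Genes above 1.5 CPM in at least 2 of 12 libraries were tested (11228). Counts were normalized by TMM and fitted with 6 group means and no replicate block in edgeR 4.0.16 (R 4.3.3, quasi-likelihood F test, two-sided, Benjamini-Hochberg adjustment over all genes tested). Printed CPM are TMM-normalized. The 21 alternatives were DESeq2 1.42.0, a fit of only the groups compared, scaling by RLE or by the total count, a filter at 10 counts over all libraries, a replicate block, a gene length correction (lowess, span 0.3) with and without the block, each library left out, and a crossed block added after seeing the data. The code was tested on simulated data. The SE holds counting error, which weighs most for Egr1 (198 reads in its lowest library), and a spread between libraries pooled over the 6 groups.

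The 10 genes, the lists and the tests were chosen with earlier results of these data known. Of each list, the text names up to 3 genes with the largest change among those called in a treatment comparison, and for each of the 10 the 3 genes most alike on log CPM with a prior count of 2. Some genes of the lists are counted but their values are not reported here.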

Additional observations from a re-analysis of the deposited data

How the results depend on the processing

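Over the 110 fold changes of the 10 genes, the 21 alternatives gave 2310 values, of which 2202 kept their direction and side of the threshold, 52 lost a call, 56 gained one and 0 reversed a call; 65 changed sign with no call in either fit. The counts of the 10 genes called ranged as follows with a library left out. PM against vehicle gave 4 (without the second WT library with PM, 12.4% of all genes) to 7 in WT and 5 (without the first labelled Acod1-/- library with PM, 12.4%) to 9 (without either WT library with OI and PM, 39.8%) in labelled Acod1-/- cells. OI with PM against PM gave 2 (32.6% to 39.8% of all genes) to 5 (60.3%) in WT. Labelled Acod1-/- against WT gave 0 to 2 with vehicle (0.463% to 3.51% of all genes), 1 to 3 with PM (0.659% to 6.22%) and 0 to 5 with OI and PM (0.846% to 48.6%), the upper values without a WT library with OI and PM. The interaction for OI gave 0 to 2 (0% to 4.68%).

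For labelled Acod1-/- against WT with vehicle, 7 of the 10 were called with the compared groups alone (20.6% of all genes), 1 with the gene length correction (3.32%) and 2 with the correction and the block (3.31%), against 0 (1.83%). With PM, 2 were called under DESeq2, RLE scaling, total count scaling, the replicate block, the gene length correction with and without the block and the crossed block, against 1; the second was Junb throughout, and the share of all genes ran from 2.27% to 5.33%, against 2.4%. With OI and PM, 2 were called under DESeq2 (11.8% of all genes) and the crossed block (16.7%), Fos and Myc in each, against 1 (6.96%). The gene length correction also called 2 (15.4%), but these were Junb and Jund, and the Fos call was lost. With the block added to the correction, Junb alone was called (16.9%). The compared groups alone (0.0178%), total count scaling (6.87%) and the filter of 10 counts (3.59%) called 0. The causes were not tested.

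All genes called for labelled Acod1-/- against WT with OI and PM numbered 782, 2 with the compared groups alone, 1321 under DESeq2 and 5452 without the first WT library with OI and PM. Total count scaling moved the higher calls of OI with PM against PM in WT from 2391 of 4926 to 1413 of 4730. For PM against vehicle it moved them from 1414 of 2782 to 1088 of 3115 in WT. In labelled Acod1-/- cells they went from 1344 of 2684 to 1085 of 2926. The labels do not say that replicate numbers pair the libraries. Same-numbered libraries deviated together between WT with PM and WT with OI and PM (r = 0.733) and against each other between WT and labelled Acod1-/- with PM (r = -0.412), and the block moved all genes called with PM in WT from 2782 to 3074. Exchanging the numbers of the labelled Acod1-/- libraries with PM in the block, chosen after seeing the data, gave 4065.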
